A study of Mus musculus with 16 samples.

Results

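Hoxa3, Hoxa4, Hoxa5, Hoxa7, Hoxa9, Hoxa10, Hoxb2, Hoxb3, Hoxb4 and Meis1 are homeobox genes whose transcripts were read in sorted mouse bone marrow cells. The rows of the value table were taken by name: a row entered where its probe annotation gave a single one of these symbols. Each gene had 1 such row, so the set is 10 of the 19937 genes named on rows with 1 symbol. RNA from 16 pools of bone marrow cells was hybridised to 1 Affymetrix Mouse Gene 1.0 ST array each. LSK cells (Lin-Sca1+c-Kit+) contain the haematopoietic stem cells and multipotent progenitors. MP cells (Lin-Sca1-c-Kit+) are myeloid progenitors. Both were sorted from WT mice and from Parp-2-/- mice, which lack the DNA damage sensor Parp-2, all of the C57BL/6J strain, and were either unirradiated or taken 2.5 h after 5 Gy of gamma radiation. Each of the 8 groups held 2 pools, and each pool held cells of at least 3 mice, so the spread between pools understates that between single animals. No source used here gives their ages. Every p-value below measures the spread between pools.

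Hox proteins are homeodomain transcription factors encoded in clusters, in which the order of the genes along the chromosome follows their order of use along the body axis. In blood formation, genes of the HoxA cluster, Hoxa9 above all, and anterior genes of the HoxB cluster are active in stem cells and early progenitors and are turned down as cells mature. Meis1 belongs to the TALE class of homeodomain proteins and binds DNA together with Hox and Pbx proteins. Hoxa9 and Meis1 are also known as a pair that, kept on together, drives acute myeloid leukaemia. Genes of the MLL complexes keep Hox clusters active, and Polycomb complexes silence them.

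The promoters of the 4 genes with the largest differences between LSK and MP cells are shown first, since each was higher in LSK cells. Each stretch is the 250 bases before the transcription start in RefSeq's GRCm38.p6 table, written 5′ to 3′ on the gene's own strand. Hoxa10 has 2 start sites there. Capitals mark every match, on either strand, to the CCAAT, GC and TATA boxes of core promoters or to a MEIS site.
Hoxa5, chr6:52204588-52204837, minus strand: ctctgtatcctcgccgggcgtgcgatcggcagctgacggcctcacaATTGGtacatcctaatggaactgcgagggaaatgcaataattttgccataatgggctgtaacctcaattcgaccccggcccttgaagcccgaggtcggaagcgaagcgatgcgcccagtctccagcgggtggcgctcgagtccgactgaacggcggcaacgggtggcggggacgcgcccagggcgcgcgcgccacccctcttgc
Hoxa9, chr6:52227371-52227620, minus strand: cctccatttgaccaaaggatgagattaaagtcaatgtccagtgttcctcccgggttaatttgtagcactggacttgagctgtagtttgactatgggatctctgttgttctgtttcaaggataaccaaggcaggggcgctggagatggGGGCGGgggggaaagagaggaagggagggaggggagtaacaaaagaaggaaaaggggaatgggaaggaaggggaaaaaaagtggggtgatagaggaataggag
Hoxa10, outer start, chr6:52240855-52241104, minus strand: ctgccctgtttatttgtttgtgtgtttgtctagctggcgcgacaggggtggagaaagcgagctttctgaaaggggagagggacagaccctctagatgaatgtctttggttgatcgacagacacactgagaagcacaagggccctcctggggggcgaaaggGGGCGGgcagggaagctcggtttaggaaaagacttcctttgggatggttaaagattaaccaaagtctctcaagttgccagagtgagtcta
Hoxa10, inner start, chr6:52234940-52235189, minus strand: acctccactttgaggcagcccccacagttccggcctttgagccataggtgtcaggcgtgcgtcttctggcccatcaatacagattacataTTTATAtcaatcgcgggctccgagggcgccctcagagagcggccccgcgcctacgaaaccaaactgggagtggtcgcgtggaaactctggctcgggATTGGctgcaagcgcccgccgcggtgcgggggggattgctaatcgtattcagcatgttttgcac
Meis1, chr11:19018970-19019219, minus strand: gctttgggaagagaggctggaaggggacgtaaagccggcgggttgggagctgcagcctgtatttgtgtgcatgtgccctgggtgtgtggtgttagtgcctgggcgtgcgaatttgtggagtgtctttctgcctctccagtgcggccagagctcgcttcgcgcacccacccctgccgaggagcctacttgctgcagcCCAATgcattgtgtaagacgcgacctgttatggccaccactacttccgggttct

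The 5 windows share no motif among all of them. The CCAAT box, searched by its own letters, stands in the windows of Hoxa5, Meis1 and the inner start of Hoxa10, and it occurs in 33.8% of the 32851 promoter windows of the same length. The GC box (CCGCCC) stands in the windows of Hoxa9 and the outer start of Hoxa10, and in 32.7% of all windows. The single TATA box (TATAAA) is that of the inner Hoxa10 start, and 12.4% of all windows hold one. None of the 5 windows holds the MEIS site (TGACAG), which the Hoxa3 window does and which occur in 15.9% of all windows. They differ widely in CpG dinucleotides, the substrate of DNA methylation: 28 for Hoxa5, 20 and 7 for the inner and outer starts of Hoxa10, 13 for Meis1 and 3 for Hoxa9, where the median over all windows is 6. These matches describe letters only. The table held windows for 7 of the 10 genes.

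Transcript levels are log2 intensities, on which a difference of 1 is a doubling. The medians of the 16 arrays lay between 4.74 and 4.92, and a level below its array's median is not shown to be above background. Arrays of LSK cells had a narrower spread of values over rows (SD 1.89 to 2.03, the lowest being WT LSK irradiated pool 1) than arrays of MP cells (2.05 to 2.13). In the Parp2 row, the targeted gene, the 8 Parp-2-/- arrays read 5.70 to 7.11 and the 8 WT arrays 7.40 to 8.40. Markers of the sorted populations were checked next, where 21.4% of all rows were called higher in LSK cells and 17.9% lower. Of 10 measured stem and multipotent progenitor genes 6 were called higher and 1, Mllt3, lower. Of 10 granulocyte and monocyte progenitor genes 8 were called lower and 1, Csf3r, higher, and 7 of 7 erythroid genes were lower. Ly6a, which encodes Sca1, was not read from a row with 1 symbol, so the gate itself was not checked.

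LSK and MP cells were compared first over all conditions, as the mean of the 4 LSK minus MP differences of WT and Parp-2-/- cells with and without irradiation (n = 8 arrays against 8). Meis1 had the largest difference of the 10, at 1.37 ± 0.14 (SE), a 2.59-fold higher intensity in LSK cells (limma, adjusted p = 4.8e-05). Hoxa5 was 2.00-fold higher and Hoxa9 1.77-fold. Hoxa10 differed by 0.66 ± 0.10 in measured log2 intensity, with no fold given, since 7 of its 8 MP arrays lay below their array median. Smaller differences were called for Hoxb3 (0.37 ± 0.10), Hoxb2 (0.32 ± 0.08) and Hoxa3 (0.29 ± 0.08). The remaining Hoxa4, Hoxa7 and Hoxb4 did not pass the test. In all, 7 of the 10 genes were called higher in LSK cells and 0 lower. Over all 22961 rows tested, 39.3% were called in either direction, 21.4% higher and 17.9% lower, so a call alone is common in this comparison. The median difference of the 10 genes was 0.35 and that of all rows 0.12. In bulk RNA, a lower level in a population cannot be told apart from fewer cells that carry the transcript.

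**Figure D1:**
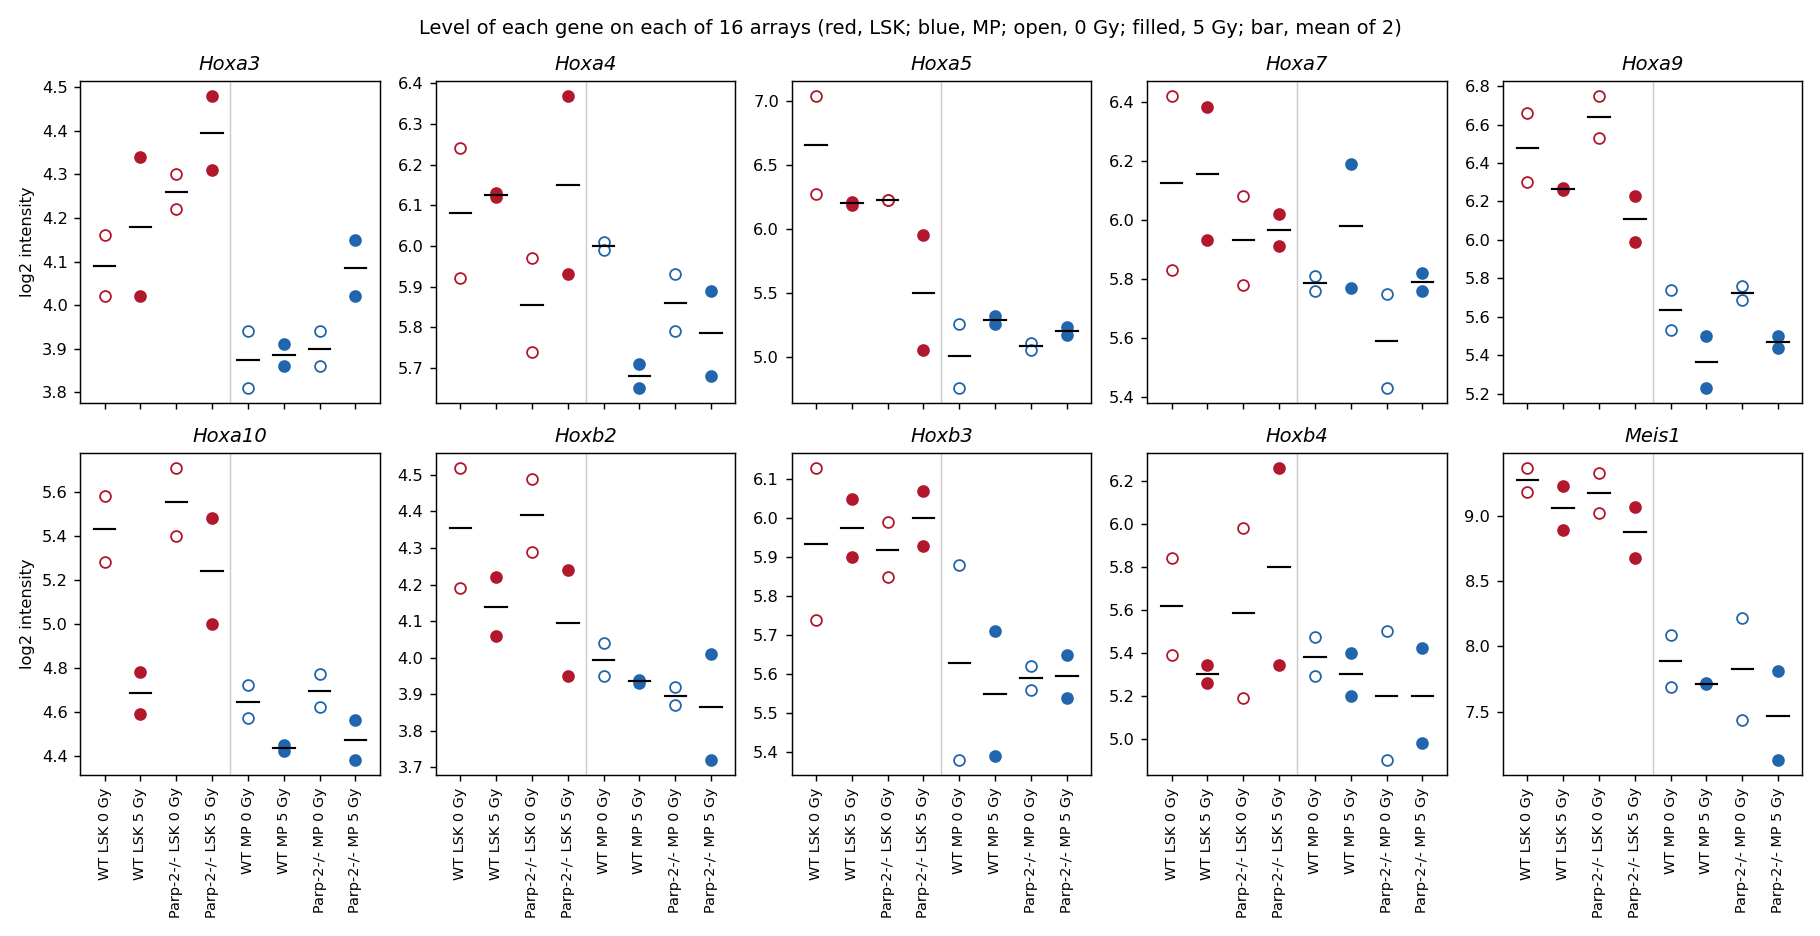
Log2 intensity of each of the 10 genes (vertical axes, a separate scale for each gene) on each of the 16 arrays, by group; red points are LSK pools, blue points MP pools, open points unirradiated and filled points irradiated, and bars the mean of 2 pools. The 8 LSK arrays lie above the 8 MP arrays without overlap for Hoxa9 and Meis1, and the groups of Hoxa4, Hoxa7 and Hoxb4 overlap widely.

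Meis1, the Hox cofactor, was read well above the array medians on all 16 arrays. In unirradiated WT LSK cells its pools read 9.37 and 9.18, and in irradiated WT LSK cells 8.89 and 9.23. The Parp-2-/- LSK pools read 9.02 and 9.33 unirradiated and 9.07 and 8.68 irradiated. All 8 LSK values thus lay between 8.68 and 9.37. The WT MP pools read 8.09 and 7.69 unirradiated and 7.71 and 7.72 irradiated. The Parp-2-/- MP pools read 8.22 and 7.44 unirradiated and 7.81 and 7.13 irradiated. No MP array reached the lowest LSK array, and such a separation of all 8 LSK arrays above all 8 MP arrays occurred in 2.21% of all rows. In order of the group means, the 4 LSK groups (9.28 to 8.87) came first and the 4 MP groups (7.89 to 7.47) after a gap of 0.98, while neighbours within each cell type overlapped.

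Hoxa9, the HoxA gene best known in early blood progenitors, showed the same separation. Its pools read 6.30 and 6.66 in unirradiated WT LSK cells, 6.26 and 6.27 in irradiated ones, 6.53 and 6.75 in unirradiated Parp-2-/- LSK cells and 6.23 and 5.99 in irradiated ones. MP pools read 5.74 and 5.53, then 5.50 and 5.23, in WT cells without and with irradiation, and 5.76 and 5.69, then 5.50 and 5.44, in Parp-2-/- cells. The lowest LSK value, 5.99, lay above the highest MP value, 5.76. The mean difference was 0.82 ± 0.08 (limma, adjusted p = 4.8e-05). Within each cell type the order of group means ran from unirradiated to irradiated, and in LSK cells the 2 unirradiated groups (6.64 and 6.48) did not differ beyond their spread.

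Hoxa10, the gene next to Hoxa9 in the cluster, lay clear of the MP range in 3 of the 4 LSK groups. Unirradiated LSK pools read 5.28 and 5.58 in WT and 5.71 and 5.40 in Parp-2-/- cells, and irradiated Parp-2-/- LSK pools 5.48 and 5.00. The irradiated WT LSK pools, at 4.59 and 4.78, lay at the level of the MP pools, which spanned 4.38 to 4.77. The mean difference of 0.66 ± 0.10 (limma, adjusted p = 4e-04) is one between dim levels: besides those 7 MP arrays, 2 of the 8 LSK arrays fell below their array median. Hoxa7, another HoxA gene of the same cluster, overlapped between the cell types: LSK arrays ran from 5.78 through a median of 5.97 to 6.42, and MP arrays from 5.43 through 5.76 to 6.19. Its difference of 0.26 ± 0.11 was not called (limma, adjusted p = 0.088).

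Hoxa5, a mid-cluster gene, had the largest difference in any one condition, 1.64 in unirradiated WT cells. The unirradiated WT LSK pools read 7.04 and 6.27 and the irradiated ones 6.21 and 6.19. Unirradiated Parp-2-/- LSK pools read 6.23 and 6.23, and irradiated ones 5.06 and 5.95. MP arrays stayed between 4.76 and 5.32 in all groups. Thus 7 of the 8 LSK arrays lay above every MP array, and the exception was irradiated Parp-2-/- LSK pool 1, which read like an MP pool. The mean difference, 2.00-fold, had a 95% interval from 0.69 to 1.31 on the log2 scale (limma, adjusted p = 0.00038), and was 1.11 without that pool and 0.89 without pool 2 of the same group.

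The anterior HoxA genes Hoxa3 and Hoxa4 differed little. Hoxa3 arrays read 4.02 to 4.48 (median 4.26) in LSK and 3.81 to 4.15 (median 3.93) in MP cells, below the array median on all 16. The call for Hoxa3 is therefore on a level that is not shown to be above background. Hoxa4 arrays read 5.74 to 6.37 (median 6.05) in LSK and 5.65 to 6.01 (median 5.84) in MP cells. Its difference of 0.22 ± 0.09 was not called (limma, adjusted p = 0.060), and its 8 group means interleaved, with unirradiated WT MP cells (6.00) above unirradiated Parp-2-/- LSK cells (5.86). The RefSeq span of Hoxa3 overlaps those of Hoxa4 and Hoxa5, so how far their rows share transcripts is uncertain.

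Among the HoxB genes, Hoxb3 was the one with a called difference at a level above the array median. Its LSK pools read 5.74 and 6.13 in unirradiated WT, 6.05 and 5.90 in irradiated WT, 5.99 and 5.85 in unirradiated Parp-2-/- and 5.93 and 6.07 in irradiated Parp-2-/- cells. MP arrays ran from 5.38 through a median of 5.59 to 5.88. The highest MP array (unirradiated WT pool 2) lay above 2 LSK arrays, unirradiated WT pool 1 and unirradiated Parp-2-/- pool 2, and 6 of the 8 LSK arrays lay above every MP array. The difference of 0.37 ± 0.10 was called (limma, adjusted p = 0.013). Hoxb2, read below the array median on all 16 arrays, spanned 3.95 to 4.52 in LSK and 3.72 to 4.04 in MP cells. Hoxb4, a gene known for expanding stem cells when overexpressed, was the most variable between pools of one group, with a pooled within-group SD of 0.38. Irradiated Parp-2-/- LSK pools read 6.26 and 5.34 and unirradiated ones 5.19 and 5.98, against an MP range of 4.90 to 5.50. Its difference of 0.31 ± 0.16 has a 95% interval from -0.05 to 0.66 (limma, adjusted p = 0.14), so a difference as large as that of Hoxb3 is not excluded. The span of Hoxb3 overlaps Hoxb4 and the miR-10a gene in RefSeq.

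**Figure D2:**
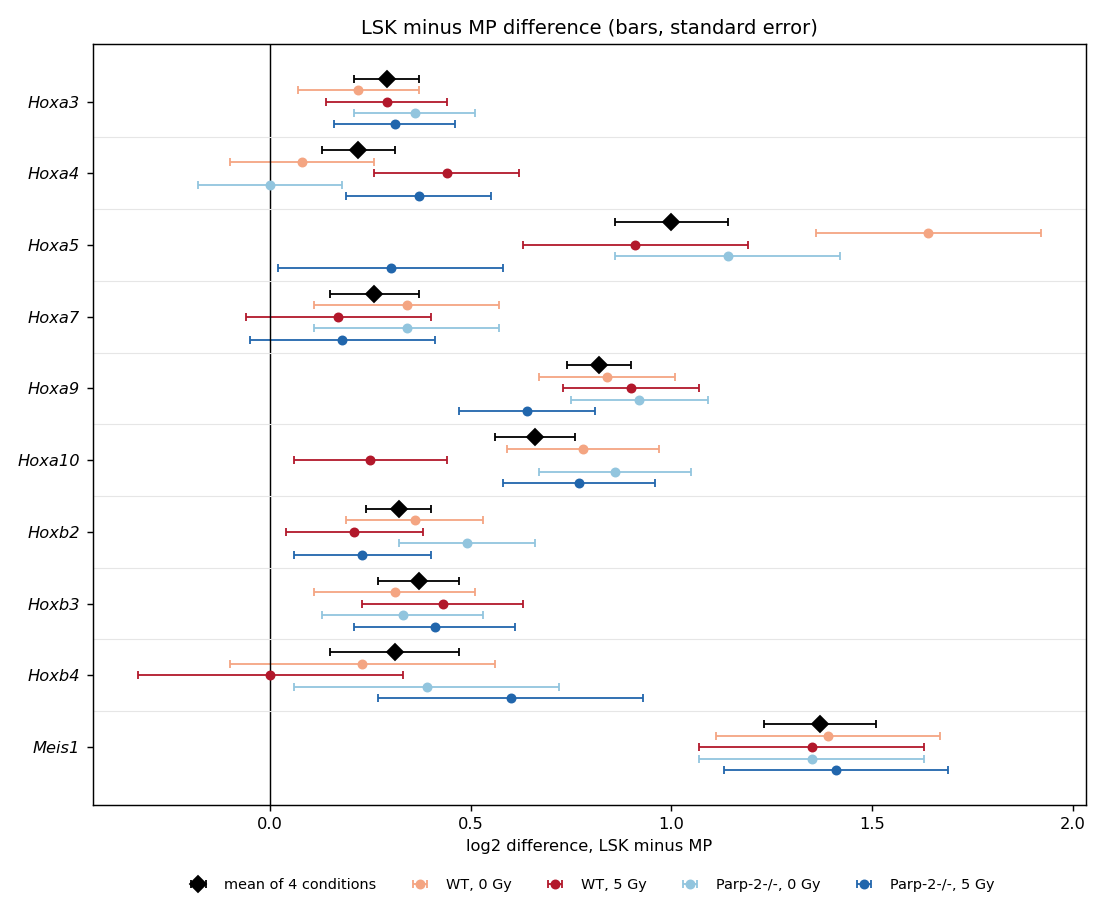
LSK minus MP difference in log2 units (horizontal axis) for each of the 10 genes, as the mean of 4 conditions (black diamonds) and in each condition (circles); bars are standard errors. Meis1 stays between 1.35 and 1.41 in the 4 conditions, while Hoxa5 ranges from 0.30 to 1.64.

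No call among the 7 was lost when any 1 of the 16 arrays was left out. Other genes joined them in some of these fits. Hoxa4 was called without unirradiated WT LSK pool 1 (0.26) or irradiated Parp-2-/- LSK pool 2 (0.28), Hoxa7 without unirradiated WT LSK pool 2 (0.33) or irradiated WT LSK pool 2 (0.31), and Hoxb4 without irradiated Parp-2-/- LSK pool 2 (0.42).

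The comparison carried a difference that depended on the level of a row. Rows with a mean of 4 to 5 had a median LSK minus MP difference of 0.20, and rows with a mean of 7 to 8 one of -0.33. Below the arrays' median level 31.1% of rows were called higher in LSK cells, and at or above it 13.1%. Each gene was therefore set beside the rows within 0.5 log2 units of its own level. Meis1 exceeded the median of such rows by 1.70, Hoxa5 by 0.96, Hoxa9 by 0.89, Hoxa10 by 0.49, Hoxb3 by 0.37, Hoxa7 by 0.31, Hoxa4 by 0.28 and Hoxb4 by 0.22. Hoxa3 and Hoxb2 exceeded it by 0.09 and 0.12, at a level where 33.6% of rows were called higher. After cyclic loess normalisation of the 16 arrays, chosen after the data were seen, the median of all rows fell from 0.12 to 0.01 and the calls from 4920 higher and 4102 lower to 1696 higher and 2552 lower. Meis1 (1.63), Hoxa5 (0.98), Hoxa9 (0.86), Hoxa10 (0.53) and Hoxb3 (0.37) were called there, and Hoxa3 (0.10) and Hoxb2 (0.13) were not. Quantile normalisation of the deposited values called the same 5 and Hoxa4 (0.29), with 0.15 for Hoxa3 and 0.19 for Hoxb2 uncalled, among 1951 rows higher and 2478 lower.

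**Figure D3:**
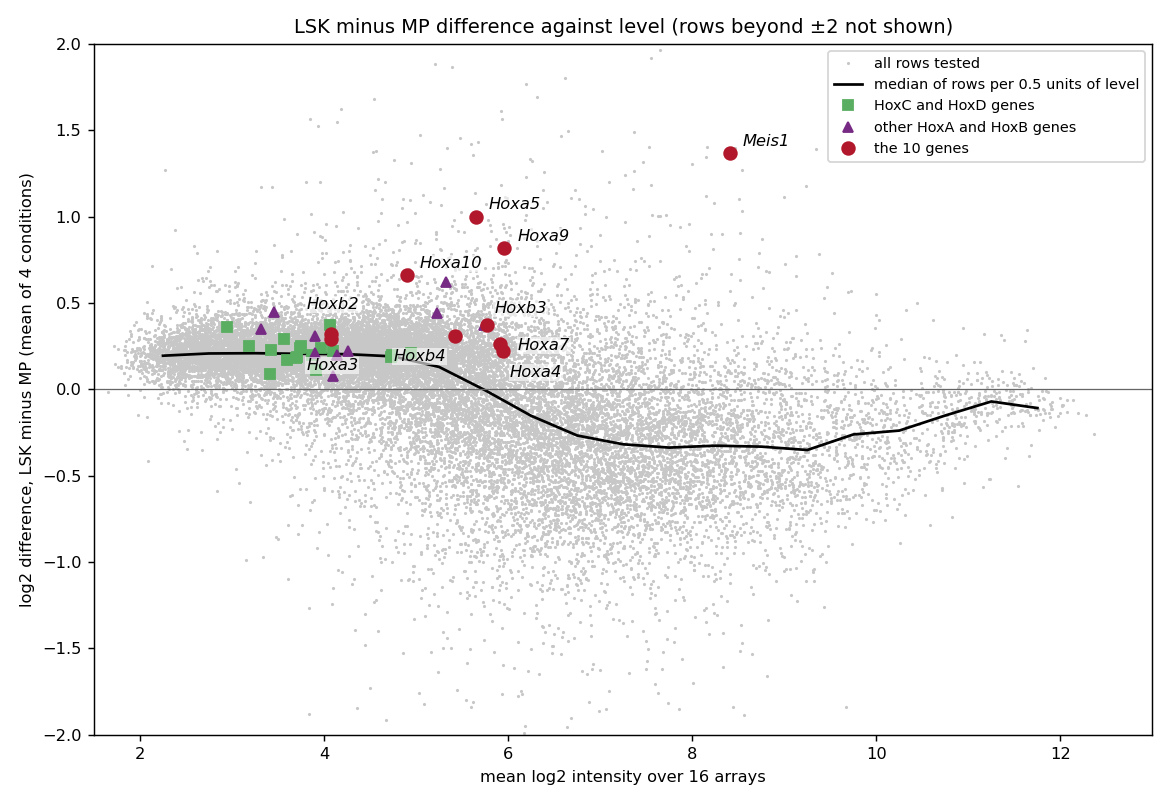
LSK minus MP difference (vertical axis, log2, mean of 4 conditions) against mean log2 intensity over 16 arrays (horizontal axis) for all rows tested (grey), with the 10 genes in red, other HoxA and HoxB genes as triangles and HoxC and HoxD genes as squares; the black line is the median of rows per 0.5 units of level. Meis1, Hoxa5, Hoxa9 and Hoxa10 stand above the line, while Hoxa3, Hoxb2 and the HoxC and HoxD genes lie along it.

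Within single conditions (2 arrays against 2) the differences of all 10 genes were above 0 in each of the 4, a sign pattern of 36.6% of all rows. Those of Hoxb4 in irradiated WT (SE 0.33) and Hoxa4 in unirradiated Parp-2-/- cells (SE 0.18) rounded to 0.00, so their direction is not settled. Meis1 was called in each condition, with 1.39 in unirradiated WT, 1.35 in irradiated WT, 1.35 in unirradiated Parp-2-/- and 1.41 in irradiated Parp-2-/- cells (SE 0.28 each). Rows called higher in all 4 conditions made up 0.0827% of those tested. In unirradiated WT cells 4 of the 10 genes were called, namely Hoxa5 (1.64), Hoxa9 (0.84), Hoxa10 (0.78) and Meis1, where 5.23% of all rows were called, 1.29% higher and 3.93% lower. In irradiated WT cells Hoxa9 (0.90) and Meis1 were called, against 2.45% of all rows, 0.575% higher and 1.87% lower. The same 4 genes as in unirradiated WT cells were called in unirradiated Parp-2-/- cells, with 1.14 for Hoxa5, 0.92 for Hoxa9 and 0.86 for Hoxa10, against 3.34% of rows, 0.827% higher and 2.52% lower. In irradiated Parp-2-/- cells Hoxa10 (0.77) and Meis1 were called, against 4.07% of rows, 0.88% higher and 3.19% lower, and Hoxa9 (0.64) was not (limma, adjusted p = 0.056). Hoxa5 gave 0.30 ± 0.28 there, and -0.14 without pool 2 of the irradiated Parp-2-/- LSK cells.

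These calls within conditions are less firm than the mean over conditions. Fitted on the 4 arrays of a condition alone, 0 of the 10 genes were called in each. Few rows of any kind were called in these fits, so they say little about the 10 genes. The shares of all rows were 0.222% in unirradiated WT and 0.296% in irradiated WT cells. In Parp-2-/- cells they were 0.518% unirradiated and 0.422% irradiated. Hoxa10 in unirradiated WT cells was not called after quantile or cyclic loess normalisation (limma, adjusted p = 0.068 and 0.078). Nor was Hoxa5 in unirradiated Parp-2-/- cells (limma, adjusted p = 0.089 and 0.071), where the deposited values gave 0.049. With the pool number as a replicate block, Hoxa5 was not called there either (limma, adjusted p = 0.061). These calls of Hoxa10 and Hoxa5 were also lost in further fits with 1 array left out. The counts that follow list only the larger changes. In unirradiated WT cells the count of 4 fell to 1 (Hoxa5) without LSK pool 2 or MP pool 1, and to 0 without MP pool 2. In irradiated WT cells the count of 2 fell to 1 (Hoxa9) without LSK pool 2 and to 0 without any of the other 3 arrays. In unirradiated Parp-2-/- cells the count of 4 fell to 1 without LSK pool 1 (Hoxa9), LSK pool 2 (Hoxa10) or MP pool 1 (Meis1), and to 0 without MP pool 2, and it was 2 (Hoxa9 and Meis1) without either irradiated WT MP pool. In irradiated Parp-2-/- cells the count of 2 fell to 0 without LSK pool 1 or MP pool 2, and to 1 (Meis1) without MP pool 1 or any pool of the other 3 MP groups, and was 3, with Hoxa9, without either unirradiated WT LSK pool.

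The radiation response was asked in each combination of genotype and cell type. None of the 10 genes was called in any of them by limma, against 1.8% of all rows in WT LSK cells (1.18% higher and 0.623% lower) and 1.47% in Parp-2-/- LSK cells (0.727% and 0.74%). In MP cells the background was 0.671% in WT (0.571% higher and 0.1% lower) and 0.588% in Parp-2-/- (0.505% and 0.0827%). At an unadjusted p under 0.05 there was 1 gene in WT LSK cells, 2 in Parp-2-/- LSK cells and 0 in either MP group. The shares of all rows at that threshold were 14.7% in WT LSK and 11.8% in Parp-2-/- LSK cells. In MP cells they were 6.24% in WT and 5.75% in Parp-2-/-. Hoxa10 gave the largest value, -0.74 ± 0.19 in WT LSK cells (limma, adjusted p = 0.077). Both irradiated WT LSK pools, at 4.59 and 4.78, lay below both unirradiated ones, at 5.28 and 5.58. They also lay below their array medians, a level not shown to be above background. This response was called (adjusted p = 0.044) without irradiated Parp-2-/- LSK pool 1 or pool 2, which enter the fit through the shared variance only. In Parp-2-/- LSK cells Hoxa5 gave -0.72 ± 0.28 (limma, adjusted p = 0.32) and Hoxa9 -0.53 ± 0.17 (0.19). All other responses lay between -0.45 and 0.29, and those of Meis1 between -0.36 and -0.18, each with an SE of 0.28.

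**Figure D4:**
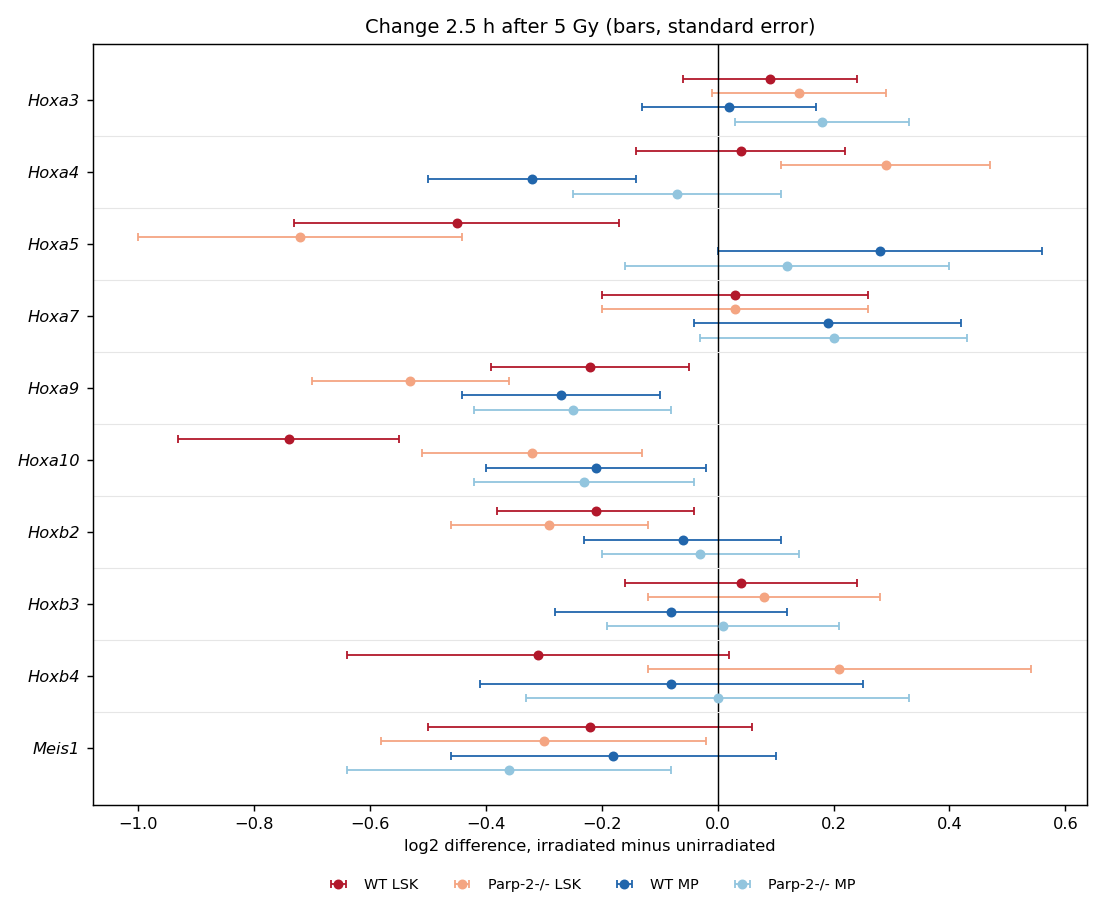
Irradiated minus unirradiated difference in log2 units (horizontal axis) of each of the 10 genes in WT LSK, Parp-2-/- LSK, WT MP and Parp-2-/- MP cells; bars are standard errors. The values of Hoxa9, Hoxa10, Hoxb2 and Meis1 lie below 0 in all 4 combinations, and no value plotted was called.

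Hoxa9, Hoxa10, Hoxb2 and Meis1 had 4 of 4 responses below 0, though those of Hoxb2 in MP cells were -0.06 and -0.03 (SE 0.17 each). The share of all rows with this sign pattern was not counted. The median of all rows was -0.02 in WT LSK, 0.00 in Parp-2-/- LSK, -0.04 in WT MP and -0.01 in Parp-2-/- MP cells. The mean of the 4 responses, a comparison added after these values were seen, was -0.32 ± 0.08 for Hoxa9 (limma, adjusted p = 0.049) and -0.37 ± 0.10 for Hoxa10 (0.038). Both were called lower, where 5.8% of all rows were called, 3.31% higher and 2.49% lower. The Hoxa10 value is one between dim levels, with 6 of 8 LSK arrays and 1 of 8 MP arrays above their array median. Meis1 gave -0.26 ± 0.14 (limma, adjusted p = 0.39). With 1 array left out, Hoxa9 was called in 2 of 16 fits (without unirradiated WT LSK pool 1 or irradiated Parp-2-/- LSK pool 1). Hoxa10 was called in 4 of 16 (without either of these, irradiated WT LSK pool 2 or unirradiated Parp-2-/- LSK pool 2), and under quantile normalisation neither gene was.

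Genotype left no call among the 10 genes in any comparison of Parp-2-/- with WT cells by limma. The background was as low, with 0% of rows called in unirradiated LSK, 0.0174% in irradiated LSK, 0.00436% in unirradiated MP and 0.00871% in irradiated MP cells. An unadjusted p under 0.05 was found for 9.31% of all rows in unirradiated and 9.55% in irradiated LSK cells. In MP cells the shares were 1.08% unirradiated and 1.79% irradiated. Of the 10 genes, 2 passed this threshold in irradiated LSK cells and 0 elsewhere. These 2 were Hoxa5, lower in Parp-2-/- cells (-0.69 ± 0.28, adjusted p = 0.48), and Hoxa10, higher in them (0.55 ± 0.19, adjusted p = 0.39). Averaged over the 4 combinations, again 0 of 10 were called (background 0.00871%), and 0 had an unadjusted p under 0.05, against 5.34% of all rows. The differences ran from -0.28 for Hoxa5 to 0.19 for Hoxa10. The interval for Meis1, -0.45 to 0.16, leaves room for a moderate change.

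Whether the LSK minus MP difference itself changed was tested by interaction. With irradiation, 0 of the 10 genes were called (limma, background 0%). Of all rows 6.55% had an unadjusted p under 0.05, and of the 10 genes 1 did. That gene was Hoxa5, with an interaction of -0.79 ± 0.28 (adjusted p = 0.59), that is, a smaller difference in irradiated cells. In Parp-2-/- cells both irradiated LSK pools of Hoxa5 lay below the unirradiated ones and both irradiated MP pools above them. With genotype, 0 of 10 were called (background 0.00436%), and 0 had an unadjusted p under 0.05, against 4.84% of all rows. Hoxa5 again had the largest value, at -0.55 ± 0.28 (limma, adjusted p = 0.98). For Meis1 both interactions were 0.01 ± 0.28.

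The remaining Hox genes give the setting for these values. Of 30 listed genes outside the set, 28 were measured, with a median of 0.23. Of these, 12 were called higher in LSK than MP cells and 0 lower, against 21.4% and 17.9% of all rows. The 18 genes of the HoxC and HoxD clusters, which are mostly silent in blood cells, had a median of 0.21 and a range of 0.09 to 0.37, with 6 called. That median equals the difference of rows at the same dim level, and 0 of the 18 were called after quantile or cyclic loess normalisation. Of 10 other HoxA and HoxB genes 6 were called, and after either normalisation 3, namely Hoxa6, Hoxb1 and Hoxb7. Hoxa6, the neighbour of Hoxa5 and Hoxa7, gave 0.62 ± 0.08 (limma, adjusted p = 0.00022) and was also called in unirradiated WT cells alone (1.24) and, lower after irradiation, in WT LSK cells (-0.83 ± 0.16, adjusted p = 0.025).

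Among the TALE partners of Hox proteins, 9 of 10 were measured and 3 were called higher in LSK cells: Tgif2 (0.43), Meis3 (0.42) and Pknox2 (0.29), the last at a dim level and uncalled after both normalisations. Their median was 0.04. Pbx2, Pbx3 and Pbx4, named after their values were seen as the Pbx partners measured here, gave -0.27, -0.06 and 0.04, none called. On the MLL and CDX side, 21 of 22 genes were measured, with 3 called higher and 4 lower, which is no more than the 21.4% and about the 17.9% of all rows. Kmt2a, which encodes MLL itself, gave 0.31 ± 0.09, Mllt6 0.40 and Aff4 0.39. Ash2l, a core subunit of the complex, gave -0.63 ± 0.08 and was lower under both normalisations also, whereas Aff1 (-0.58), Rbbp5 (-0.30) and Mllt3 (-0.30) were then uncalled. On the Polycomb side, 4 of 21 measured genes were called higher and 4 lower, about the shares of all rows. Cbx2 (0.43), the H3K27 demethylase Kdm6b (0.43) and Phc1 (0.42) were called in all 3 versions of the data, and Cbx7 (0.30) was not. Ezh2 (-0.41), Suz12 (-0.41), Bap1 (-0.35) and Eed (-0.33) are bright rows, where the median of all rows lay below 0, and only Ezh2 was still called after quantile normalisation and none of the 4 after cyclic loess.

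Of 20 genes known as HOXA9 and MEIS1 targets or partners, 9 were called higher in LSK cells and 3 lower. Of all rows, 21.4% were called higher and 17.9% lower. The largest were Hlf (2.42 ± 0.11), a transcription factor of stem cells, Flt3 (1.97 ± 0.12), a receptor of early progenitors, and Mecom (1.87 ± 0.24). Tfec (-1.61 ± 0.21), Trib2 (-0.76 ± 0.16) and Myb (-0.43 ± 0.08) were lower, the last not after the normalisations. Hlf, Flt3 and Mecom are also on the stem cell marker list, so the lists are not independent.

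Markers of other cell types moved with the comparison. The lymphoid priming list was called higher in 6 of 8 genes, where 21.4% of all rows were called higher and 17.9% lower. Its mean level was 5.66 to 6.16 on LSK and 4.61 to 5.09 on MP arrays. In this list Il7r, Ccr9, Rag1 and Rag2 were below the array median on all 16. The granulocyte and monocyte list had a mean level of 6.58 to 7.17 on LSK and 7.82 to 8.31 on MP arrays, and the erythroid list 5.65 to 5.97 and 6.80 to 8.43. Their part in the Hox and Meis1 differences was not tested. Of 6 mature neutrophil genes S100a8 (-2.51) and Cxcr2 (-0.79) were called lower in LSK cells and Retnlg higher, with a mean level of 4.18 to 4.60 on LSK and 4.46 to 5.37 on MP arrays. Of 6 megakaryocyte genes Pf4 (-1.12) was lower and Gp9 (0.43) higher. The mature B list had 1 of 4 genes higher, T and NK 2 of 6, endothelial and stromal 2 of 6, and macrophage 1 higher and 1 lower of 6, with mean levels that overlapped between the cell types. Below the array median on all 16 arrays were 2 of 4 mature B genes (Cd79a and Ms4a1), 5 of 6 T and NK genes, 2 of 6 macrophage genes (Adgre1 and Mrc1) and 4 of 6 endothelial and stromal genes. The part of these lists was not tested either.

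Across the 16 arrays the 10 genes went up and down together. All 45 pairwise Pearson correlations were above 0, from 0.11 to 0.92 with a median of 0.55, and the highest was that of Hoxa9 with Meis1. These arrays share 2 cell types, and a gene that separates them correlates with any other that does. After removal of the 8 group means, which leaves 8 differences between pools, the correlations ran from -0.80 to 0.77 with a median of 0.04, and 26 of 45 were above 0. The extremes were Hoxa5 with Hoxa10 (-0.80) and Hoxb4 with Meis1 (0.77). Within the groups, then, pools that read high for one gene did not as a rule read high for the others.

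**Figure D5:**
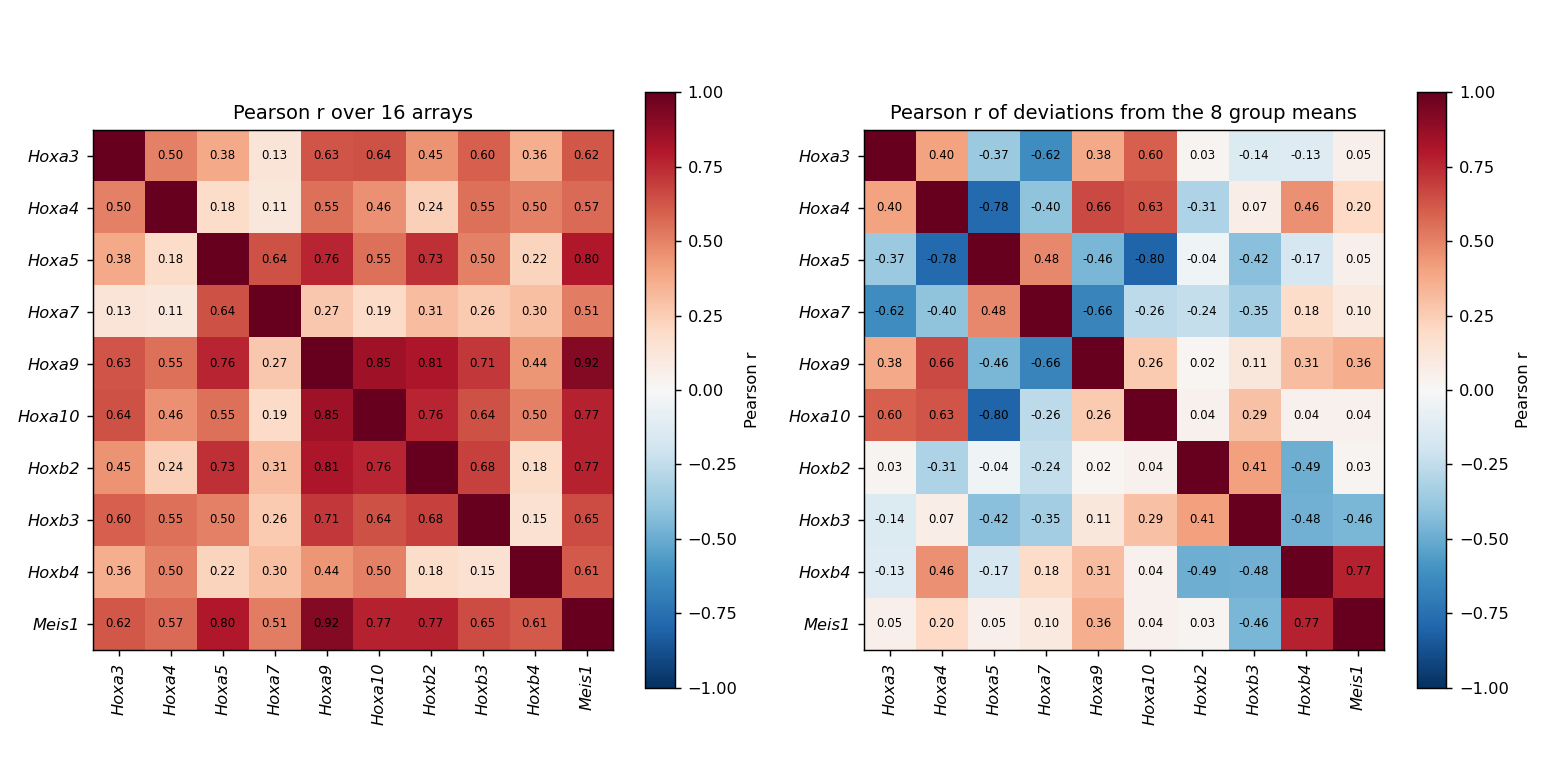
Pearson correlation between each pair of the 10 genes over the 16 arrays (left) and over deviations from the 8 group means (right), on a colour scale from -1 to 1. All 45 values on the left are above 0, against 26 of 45 on the right.

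The genes most like each member were sought over the 16 arrays among rows with an SD of at least 0.5 (2122 to 2124 rows). Hoxa9 was most like Dntt (r = 0.961), which encodes the nucleotide-adding enzyme of V(D)J joining, and Dst (0.932). Meis1 was most like Adgrg1 (0.973), an adhesion receptor, and Hlf (0.966). For Hoxa10 these were Wfdc17 (0.972) and Lax1 (0.924), and for Hoxa5 Tcf7l2 (0.895) and Kbtbd11 (0.881). Hoxb2 followed Eya2 (0.928) and Tox (0.923), Hoxa3 Iigp1 (0.856) and Ltb (0.85), and Hoxb3 Usp17ld (0.835) and P2ry14 (0.797). The 3 genes without a called difference had lower best values, with Tmem154 (0.827) and Atp5l (0.735) for Hoxa7, a second Mecom row (0.753) and Zfp831 (0.724) for Hoxa4, and Ly96 (0.734) and Olfr99 (0.726) for Hoxb4. The mean profile of the 10 genes was most like Flt3 and Hlf (0.983 each), Dntt (0.977), Adgrl4 (0.975) and Dst (0.962). All of these were themselves called higher in LSK cells, from 1.09 for Dst to 3.53 for Dntt. Likeness to other genes after removal of the group means was not computed.

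Both clusters also carry microRNA genes, whose mature forms are shown because miR-196b is encoded between Hoxa9 and Hoxa10 and miR-10a within the RefSeq span of Hoxb3. Capitals mark the seed, bases 2 to 8, in RefSeq's GRCm38.p6 table. miR-196a, from the HoxB cluster, has the same seed as miR-196b.
mmu-miR-196b-5p, chr6:52230129-52230150, minus strand: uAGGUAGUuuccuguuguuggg
mmu-miR-196a-5p, chr11:96265187-96265208, plus strand: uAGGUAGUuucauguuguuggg
mmu-miR-10a-5p, chr11:96317186-96317208, plus strand: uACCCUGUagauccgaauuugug

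The rows annotated to their precursor genes, looked up after the other values were seen, were not called between LSK and MP cells. Mir196b gave 0.31 ± 0.13 (limma, adjusted p = 0.071), Mir196a-1 0.11 ± 0.11 (0.39) and Mir10a 0.19 ± 0.12 (0.20). Only 1 of the 16 arrays for Mir196b, and 0 for the other 2, read above its median, so these rows say little about the mature forms.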

How the data were processed

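The 10 genes and all gene lists were chosen with earlier results of these data known. Expression values are log2 intensities deposited by the authors. The submitters' processing notes list RMA, limma, affy 2.10 and R 2.15; which step each served, and which arrays were normalised together, is not stated in them. The log base was read from the values' range. No further normalisation was applied to the 34760 rows. Testing covered the 22961 of them that carry a symbol, and a gene with several rows was named by that of highest mean.

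Group means (8 groups, 16 arrays) were fitted with limma 3.58.1 in R 4.3.3 (eBayes, 8 residual and 4.35 prior degrees of freedom, two-sided). Benjamini-Hochberg adjustment ran over every row tested, and a call is an adjusted p under 0.05. With so few arrays, the median SE was 0.207 for a difference of 2 groups and 0.103 for a mean of 4 differences. The code was tested on simulated data. Pool numbers were not used to pair the arrays, since the labels do not say whether pools of the same number were handled together. Correlations of pool differences between groups ran from -0.17 to 0.23, which cannot decide it. Genes named beside the 10 were at most 4 called genes of largest difference per list, members of counts of 5 or fewer, and the 2 genes most correlated with each member (5 for their mean). Alternatives were quantile and cyclic loess normalisation, dim rows left out, a variance prior with trend, a replicate block, only the groups compared, and each array left out. Cyclic loess and the means over 4 combinations for radiation and genotype were added after the data were seen. Promoter and microRNA sequences are those of RefSeq, which listed all 10 genes.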

Additional observations from a re-analysis of the deposited data

How the results depend on the processing

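In the mean LSK minus MP comparison the count of 7 genes ran from 7 to 9 with 1 array left out, and the 7 genes were called in 16 of 16 such fits. Within conditions these counts ran from 0 to 4 (unirradiated WT, reported 4), 0 to 2 (irradiated WT, 2), 0 to 4 (unirradiated Parp-2-/-, 4) and 0 to 3 (irradiated Parp-2-/-, 2), for the WT LSK radiation response from 0 to 1 (0), and for the mean radiation response from 0 to 2 (2). Fitted on only the groups compared, each of the 4 conditions gave 0, where 0.222% to 0.518% of all rows were called. Quantile normalisation gave 2 in unirradiated and 1 in irradiated Parp-2-/- cells and 0 for the mean radiation response. Cyclic loess gave 1 in irradiated Parp-2-/- cells and 1 for the mean radiation response, and the variance prior with trend 1 for the latter. With the pool number as a replicate block, irradiated Parp-2-/- cells gave 1 and the mean radiation response 0. Whether the numbers pair the arrays is not known, and the block changed no other count by over 1.5 times. All other counts kept within 1.5 times.

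Reversed values were near 0: Hoxb2 in irradiated WT cells under cyclic loess (-0.01), Hoxb4 there under quantile (-0.02) and cyclic loess (-0.04), and the mean radiation response of Hoxa4 under both (0.01). With 1 array left out, the LSK minus MP difference ran from -0.08 to 0.24 for Hoxa4 in unirradiated WT, -0.05 to 0.40 for Hoxa7 and -0.10 to 0.10 for Hoxb4 in irradiated WT, -0.11 to 0.12 for Hoxa4 and 0.00 to 0.79 for Hoxb4 in unirradiated Parp-2-/-, and -0.14 to 0.74 for Hoxa5 in irradiated Parp-2-/- cells. The mean radiation response ran from -0.07 to 0.04 for Hoxa4, -0.05 to 0.08 for Hoxb3 and -0.16 to 0.07 for Hoxb4. Without the dim rows, Hoxa3 and Hoxb2 were not tested and 5 of 8 genes were called. Each gene had 1 row, so another row could not be tried. The cause of these changes was not tested. Hoxa3 and Hoxb2 were read below the array median on all 16 arrays.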
